A study of Mus musculus with 8 samples.

Results

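The apoptosis signal-regulating kinase 1 (ASK1) cascade that feeds JNK and p38 was followed at the mRNA level through 10 kinase genes: Map3k5, Map3k6, Map2k3, Map2k4, Map2k6, Map2k7, Mapk8, Mapk9, Mapk14 and Mapkapk2. All 10 were found by gene symbol in all 8 libraries. They stand for the successive steps of the cascade, and the product of Map3k5, ASK1, is a known partner of GSTM1. Mapkapk2 was chosen by its measured expected counts and TPM, which had been seen to be higher in GSTM1 knockdown than in control knockdown, so its knockdown difference is described here without a test and the counts in the knockdown comparisons run over the other 9 genes.

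RNA-seq was performed on primary astrocytes cultured from neonatal mouse brain cortex (C57BL/6), infected as mixed glia with lentivirus carrying a control shRNA (control KD) or an shRNA against Gstm1 (GSTM1 KD). Every culture was selected with puromycin and depleted of CD11b+ cells, and each flask held glia of pooled pups. Of each kind there were 2 unstimulated (basal) cultures and 2 cultures given the inflammatory cytokine TNF-α, at 50 ng/ml over 6 h, which the study describes as biological replicates; this makes 4 groups of 2. The libraries held 17349682 to 34434615 counts in total. Gstm1 itself, the gene targeted, stood at 373 and 619 TPM (transcript share of a library, corrected for length) in the basal control KD libraries and at 49.7 and 53.8 TPM in basal GSTM1 KD, and at 338 and 627 against 40.5 and 39.4 TPM after TNF-α. Its log2 difference was -3.33 (SE 0.26) without TNF-α and -3.68 (SE 0.31) with it (edgeR adjusted p = 0.0132 and 0.00981), and reads of near-identical Gstm paralogs may have been divided among the genes.

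Mitogen-activated protein (MAP) kinase cascades pass a signal through layers of kinases that phosphorylate each other. ASK1 is a MAP kinase kinase kinase that reduced thioredoxin and GSTM1 hold inactive and that oxidative stress or TNF-α releases; it then phosphorylates MKK4 and MKK7, which activate the JNKs, and MKK3 and MKK6, which activate p38. In astrocytes and other glia, p38 and its target kinase MK2 are known for stabilising cytokine mRNAs. Activity of these kinases is set by phosphorylation, which RNA-seq does not measure; the values here are mRNA levels.

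The phosphorylation sites of the 10 kinases are shown first, since they set the layers apart and show how alike the paired genes are. In the MAP kinase kinases, the MAP kinases and MK2 the site is a target of the layer above, and in ASK1 and ASK2 it is a threonine of the activation loop that ASK phosphorylates itself. The coding sequence around each site was read on the coding strand from the GRCm38 genome with GENCODE M21 gene models, and the capitals mark the phosphorylated residues and, between them, the residues of the same motif. In the MAP kinase kinases the capitals encode serine, 3 further residues including alanine and lysine, and threonine. In the JNKs they encode threonine-proline-tyrosine, in p38α threonine-glycine-tyrosine, and in ASK1, ASK2 and MK2 a single threonine.
Map3k5, encoding ASK1, exon 18 of 30, threonine 845, chr10:20104256-20104258, + strand: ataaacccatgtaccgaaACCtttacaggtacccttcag
Map3k6, encoding ASK2, exon 18 of 29, threonine 807, chr4:133248888-133248890, + strand: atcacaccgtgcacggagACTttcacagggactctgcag
Map2k3, encoding MKK3, exon 8 of 12, residues 218 to 222, chr11:60946727-60946741, + strand: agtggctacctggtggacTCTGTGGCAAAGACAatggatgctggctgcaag
Map2k6, encoding MKK6, exon 8 of 12, residues 207 to 211, chr11:110496422-110496436, + strand: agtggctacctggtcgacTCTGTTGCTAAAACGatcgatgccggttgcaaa
Map2k4, encoding MKK4, exon 7 of 11, residues 255 to 259, chr11:65707014-65707028, - strand: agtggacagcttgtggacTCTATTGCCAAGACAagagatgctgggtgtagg
Map2k7, encoding MKK7, exon 7 of 11, residues 271 to 275, chr8:4244562-4244576, + strand: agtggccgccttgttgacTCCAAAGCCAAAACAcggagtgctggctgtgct
Mapk8, encoding JNK1, exon 6 of 12, residues 183 to 185, chr14:33393003-33393011, - strand: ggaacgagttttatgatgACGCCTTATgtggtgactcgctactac
Mapk9, encoding JNK2, exon 6 of 12, residues 183 to 185, chr11:49872830-49872838, + strand: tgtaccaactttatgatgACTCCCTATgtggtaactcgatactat
Mapk14, encoding p38α, exon 7 of 12, residues 180 to 182, chr17:28728399-28728407, + strand: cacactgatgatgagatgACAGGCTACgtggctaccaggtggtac
Mapkapk2, encoding MK2, exon 9 of 10, threonine 320, chr1:131055816-131055818, - strand: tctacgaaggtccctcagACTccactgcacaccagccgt

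Across these stretches Map2k3 and Map2k6 shared 42 of 51 bases and Map2k4 and Map2k7 shared 35 of 51. Mapk8 and Mapk9 shared 35 of 45 bases, and each of them shared 23 of 45 with Mapk14. Map3k5 and Map3k6 shared 27 of 39. The members lie on 7 chromosomes, with Map2k3, Map2k4, Map2k6 and Mapk9 all on chromosome 11. In GENCODE M21, the spans of Map2k7 and Mapk14 each overlap another protein-coding gene model on the same strand (Gm49320 and AC170998.1). Those of Map2k4, Mapk8 and Mapkapk2 hold same-strand models of other types. Whether any exons are shared was not checked, so the effect on the assignment of reads is not known.

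The genes fell into a well expressed tier of 7 and a low tier of 3, on the TPM scale, which corrects for gene length. The lowest value of Map2k3, 15.1 TPM, was above the highest of Map3k5, 5.51 TPM. The order within the upper tier differed between the knockdowns, so it is given in each, by the median over its 4 libraries. In control KD it was Mapk9 (37.0 TPM), Map2k4 (36.2), Map2k3 (34.6), Mapk8 (31.0), Mapk14 (30.8), Mapkapk2 (29.5) and Map2k7 (23.4). Of these neighbours, Map2k3 was above Mapk8 and Mapkapk2 above Map2k7 in 4 of 4 libraries, and the others kept their order in 2 or 3 of 4. In GSTM1 KD the order was Mapkapk2 (84.0 TPM), Map2k4 (64.8), Mapk9 (44.3), Mapk14 (31.5), Map2k7 (29.6), Mapk8 (23.0) and Map2k3 (16.0), and each of these stood above the next in 4 of 4 libraries. In the low tier, Map3k6 (3.11 TPM), Map3k5 (1.92) and Map2k6 (1.07) followed each other in control KD, with Map3k6 above Map3k5 in 3 of 4 libraries and Map3k5 above Map2k6 in 4. In GSTM1 KD, Map3k5 (4.01 TPM) stood above Map2k6 (2.18) in 4 of 4 libraries, and Map2k6 above Map3k6 (2.04) in 2 of 4. The low tier rests on 17 to 310 counts per library and the other 7 genes on 278 to 2751.

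**Figure D1:**
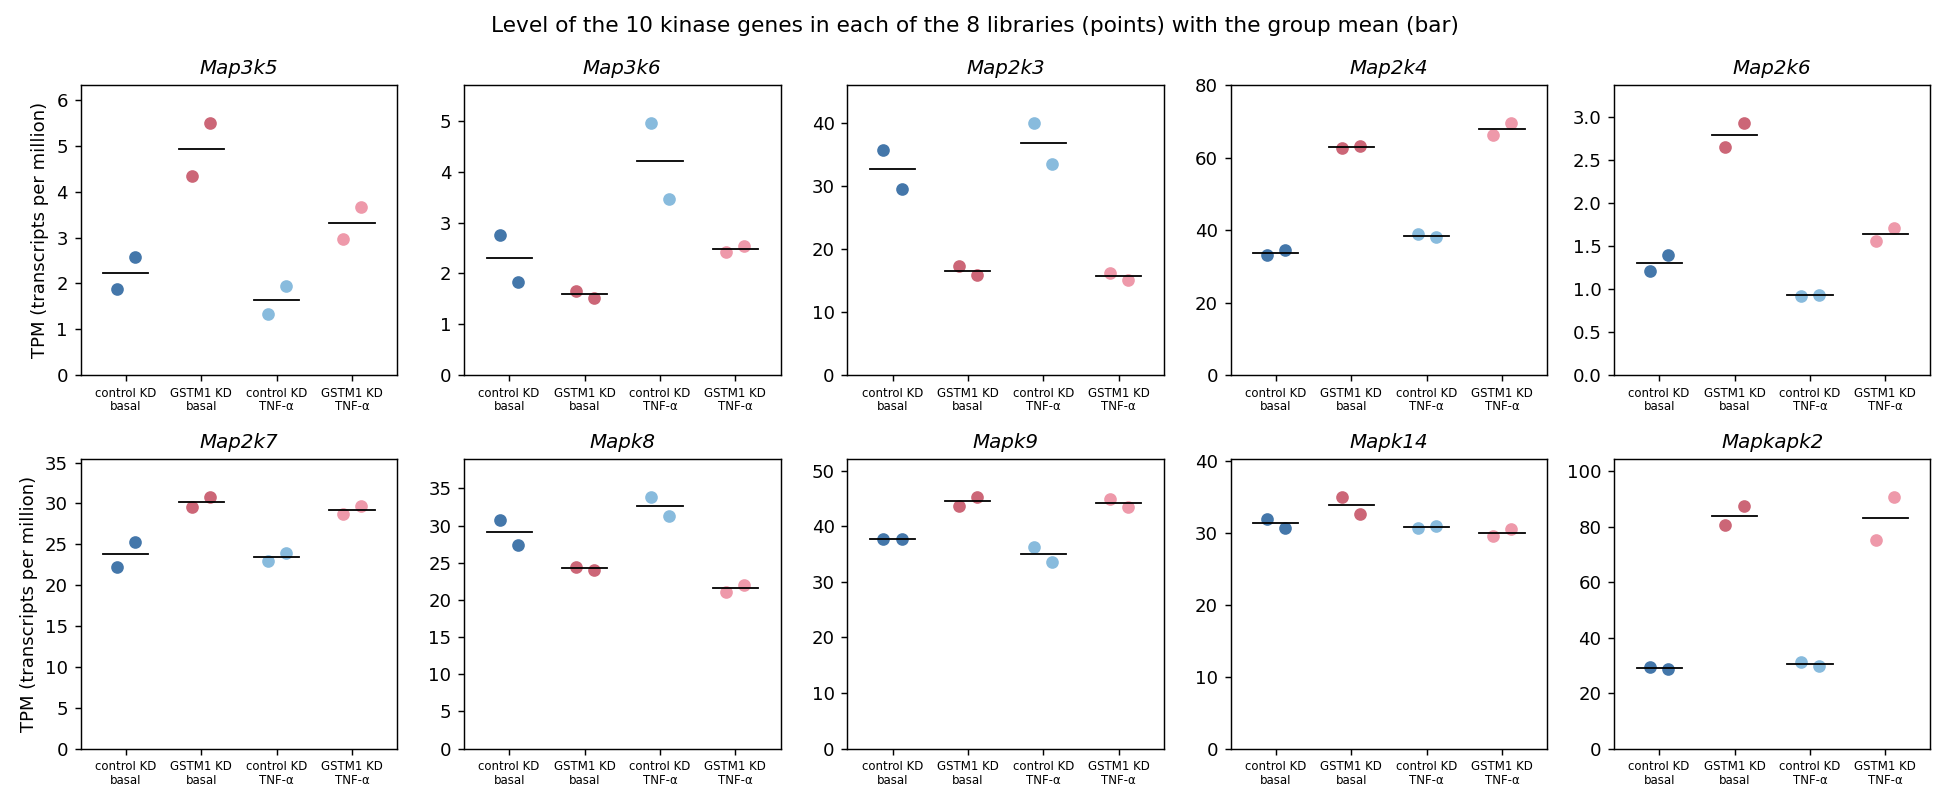
Level in TPM (y axis from 0, its own scale in each panel) of the 10 kinase genes in the 8 libraries, with each library as a point and the mean of a group's 2 libraries as a bar. Mapkapk2 and Map2k4 lie higher in both GSTM1 KD groups, Map2k3 lies lower in both, and Mapk14 stays between 29.6 and 35.0 TPM in every library.

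The first comparison asked how the level of each step differed between GSTM1 KD and control KD astrocytes, both without stimulation and after TNF-α. Without stimulation Map3k5 and Map2k4 rose and Map2k3 fell. With TNF-α Map2k4 rose and Map2k3, Map3k6 and Mapk8 fell. The genes of one step thus did not move one way: of the MAP kinase kinases, Map2k4, which serves mainly JNK, was higher in GSTM1 KD and Map2k3, which serves p38, was lower. With the quasi-likelihood test of edgeR, adjusted by Benjamini-Hochberg over all genes tested (threshold 0.05), 3 of the 9 genes passed at the basal level (2 higher, 1 lower), where 10.2% of the 14899 genes tested passed (4.6% higher and 5.62% lower). After TNF-α 4 of the 9 passed (1 higher, 3 lower), against 16.2% of 14593 genes (7.26% higher and 8.92% lower). The median difference of the 9 genes was 0.21 and 0.24 on the log2 scale, beside -0.002 and -0.01 over all genes tested. On log2 CPM (counts scaled to library size) the libraries of the groups did not overlap for 8 of the 9 genes at the basal level and for 9 of 9 after TNF-α, as for 63.5% and 66.6% of all genes; the exception was Mapk14, whose basal TPM values did not overlap either.

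Upstream, Map3k5 stood at 1.88 and 2.58 TPM in basal control KD and at 4.35 and 5.51 TPM in basal GSTM1 KD. After TNF-α it stood at 1.32 and 1.95 TPM in control KD and at 2.98 and 3.67 TPM in GSTM1 KD. Both GSTM1 KD libraries lay above both control KD libraries in each state. At the basal level Map3k5 rose 2.18-fold (95% interval 1.51 to 3.14, log2 difference 1.12, SE 0.21, edgeR adjusted p = 0.0353). After TNF-α the difference was 0.92 on the log2 scale (SE 0.27), which did not pass (edgeR adjusted p = 0.0741). It did by DESeq2 (0.0429), with no filter (0.00292), in the edgeR fit of all 8 libraries (0.0416) and with a term for the replicate number (0.0193). The basal call did not hold with limma on log2(TPM + 1), at 0.88 and an adjusted p of 0.0637.

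Map3k6, which encodes ASK2, a kinase that binds ASK1 and acts with it, showed the opposite direction. Its counts were 179 and 93 in basal control KD and 50 and 35 in basal GSTM1 KD, and 212 and 122 against 88 and 60 after TNF-α, with the first library of each group the deeper one. On the count scale Map3k6 fell by 1.16 after TNF-α (log2, SE 0.24, 95% interval -1.76 to -0.55, edgeR adjusted p = 0.035). At the basal level the value was also -1.16 (SE 0.31), with an adjusted p of 0.0691 by edgeR. The adjusted p was 0.0391 by DESeq2, 0.00378 with no filter, 0.0256 in the edgeR fit of all 8 libraries and 0.00909 with a term for the replicate number. Per length this basal difference was smaller, at -0.59 with effective-length offsets (adjusted p = 0.293) and -0.34 with limma on log2(TPM + 1) (adjusted p = 0.311). On the TPM scale the groups stood closer together, at 2.76 and 1.84 in basal control KD, 1.65 and 1.52 in basal GSTM1 KD, 4.97 and 3.46 in control KD after TNF-α, and 2.43 and 2.54 in GSTM1 KD after TNF-α. Here too the GSTM1 KD libraries lay below the control KD libraries of the same state without overlap.

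The deposited effective length of Map3k6 moved with the knockdown. It is a mean over the transcripts, weighted by estimated abundance, of their length less an allowance for fragment length. For Map3k6 it was 3134 and 3399 bases in basal control KD and 2330 and 2046 in basal GSTM1 KD, and 3125 and 3527 against 2871 and 2393 bases after TNF-α. For the other 9 genes the longest effective length was 1.01 to 1.14 times the shortest, while for Map3k6 it was 1.72 times. GENCODE M21 gives Map3k6 4 transcripts of 443, 570, 1062 and 4334 bases, of which 1 is annotated as protein coding. With those lengths as offsets the edgeR difference after TNF-α was -0.82 (adjusted p = 0.102) and with limma on log2(TPM + 1) it was -0.57 (adjusted p = 0.136), so that the call held on counts and not per length. It was also lost without the first control KD library (-0.98, adjusted p = 0.0502). Which transcripts the reads came from was not tested.

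**Figure D2:**
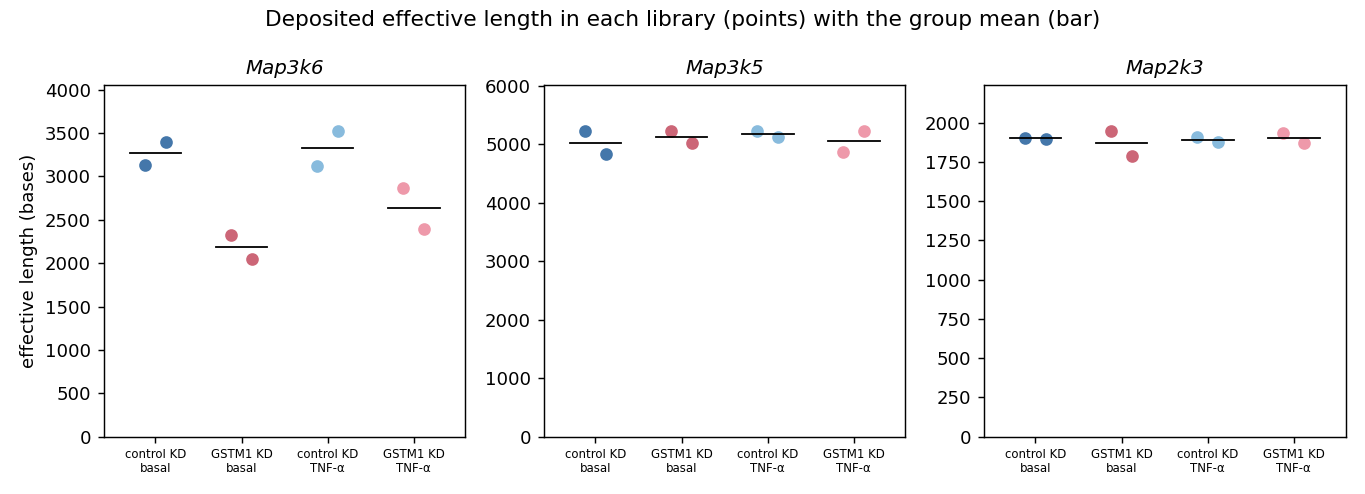
Effective length in bases (y axis from 0) of Map3k6, Map3k5 and Map2k3 in the 8 libraries, with each library as a point and the group mean as a bar. For Map3k6 all 4 GSTM1 KD libraries, at 2046 to 2871 bases, lie below all 4 control KD libraries, at 3125 to 3527 bases; the groups of the other genes overlap.

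Among the MAP kinase kinases, Map2k4 rose in both states. MKK4, its product, phosphorylates the JNKs and can also phosphorylate p38. Its level was 33.2 and 34.4 TPM in basal control KD and 62.6 and 63.3 TPM in basal GSTM1 KD. After TNF-α it was 38.8 and 38.1 TPM against 66.2 and 69.7 TPM. The lowest GSTM1 KD library, at 62.6 TPM, lay far above the highest control KD library, at 38.8 TPM. The difference was 0.86 on the log2 scale at the basal level (SE 0.10, edgeR adjusted p = 0.0178) and 0.80 after TNF-α (SE 0.10, edgeR adjusted p = 0.0129), or 1.81-fold and 1.75-fold.

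Map2k7, whose product MKK7 serves JNK alone, showed a smaller difference. It stood at 22.2 and 25.3 TPM in basal control KD against 29.5 and 30.85 TPM in basal GSTM1 KD, and at 22.9 and 23.9 against 28.7 and 29.6 TPM after TNF-α. The groups did not overlap in either state. The log2 differences were 0.30 (SE 0.11, 95% interval 0.04 to 0.56) and 0.32 (SE 0.10, 95% interval 0.07 to 0.57). They did not pass the edgeR test (adjusted p = 0.123 and 0.0805) but did in the edgeR fit of all 8 libraries (0.046 and 0.029).

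On the p38 side, Map2k3 fell in both states. It stood at 35.6 and 29.5 TPM in basal control KD and at 17.2 and 15.9 TPM in basal GSTM1 KD. After TNF-α the levels were 40.0 and 33.5 TPM in control KD and 16.1 and 15.1 TPM in GSTM1 KD. No GSTM1 KD library came above 17.2 TPM and no control KD library below 29.5 TPM. The log2 differences were -1.06 (SE 0.16, edgeR adjusted p = 0.0249) and -1.30 (SE 0.15, edgeR adjusted p = 0.0122), which leave 0.48 and 0.406 of the control level.

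Map2k6, whose product MKK6 is the other main p38 activator, went the other way at a far lower level. It stood at 1.21 and 1.39 TPM in basal control KD and at 2.65 and 2.93 TPM in basal GSTM1 KD. After TNF-α it stood at 0.92 and 0.93 TPM against 1.56 and 1.71 TPM. These groups did not overlap, but they rest on 17 to 61 counts per library. The log2 differences of 1.01 (SE 0.30) and 0.75 (SE 0.33) did not pass the edgeR test (adjusted p = 0.0872 and 0.165). The basal one passed in the edgeR fit of all 8 libraries (0.0344) and with a term for the replicate number (0.0351). Per length, Map2k3 was 29.4 and 21.2 times the level of Map2k6 in basal control KD, and 6.48 and 5.42 times in basal GSTM1 KD. After TNF-α the ratio was 43.4 and 36.0 in control KD against 10.3 and 8.81 in GSTM1 KD, so that Map2k3 remained the more abundant of the pair in all 8 libraries.

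**Figure D3:**
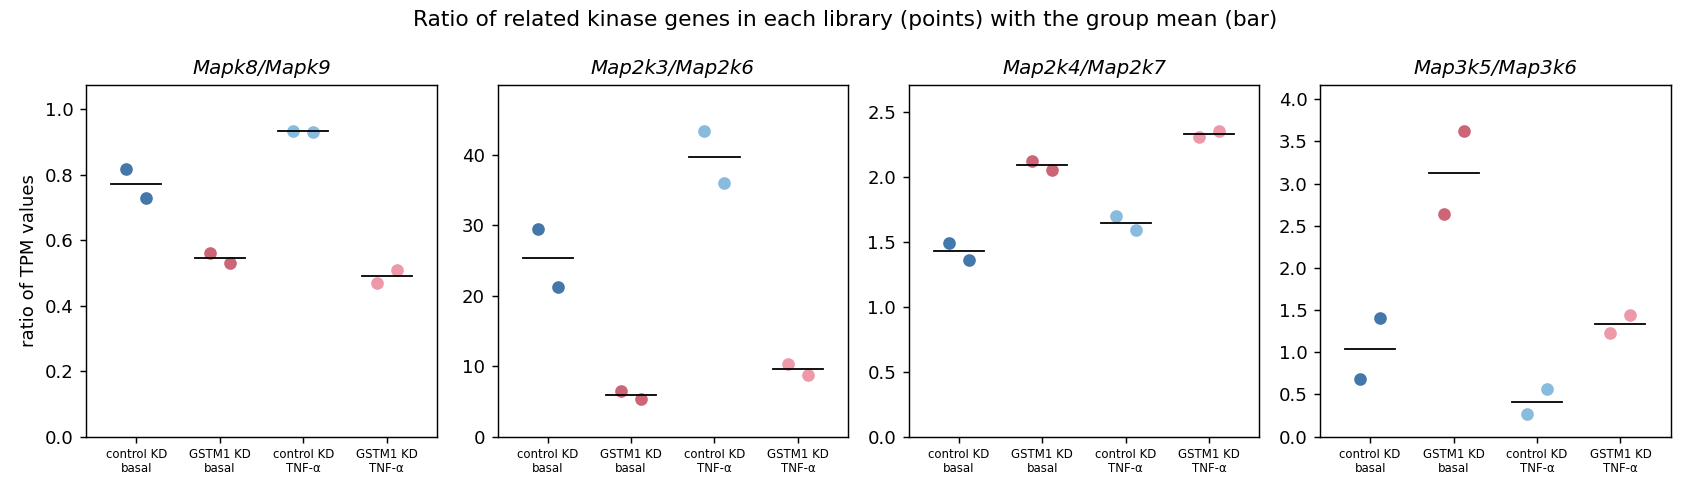
Ratio of the TPM values of related genes (y axis from 0) in the 8 libraries, with each library as a point and the group mean as a bar. Mapk8/Mapk9 and Map2k3/Map2k6 are lower in GSTM1 KD, while Map2k4/Map2k7 and Map3k5/Map3k6 are higher, without overlap within either state; the ratios are a description and were not tested.

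At the MAP kinase step, Mapk8 was lower and Mapk9 higher in GSTM1 KD, by smaller amounts. JNK1 and JNK2, their products, are the widely expressed JNKs. Mapk8 stood at 30.8 and 27.4 TPM in basal control KD and 24.5 and 24.0 TPM in basal GSTM1 KD, and at 33.9 and 31.3 TPM against 21.1 and 22.1 TPM after TNF-α. After TNF-α Mapk8 fell by 0.59 on the log2 scale (SE 0.11, edgeR adjusted p = 0.0288), to 0.665 of the control level. At the basal level the log2 difference was -0.36 (SE 0.13) and did not pass (edgeR adjusted p = 0.123).

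Mapk9 stood at 37.7 TPM in both basal control KD libraries and at 43.6 and 45.4 TPM in basal GSTM1 KD, and at 36.3 and 33.6 TPM against 44.95 and 43.4 TPM after TNF-α. Its groups did not overlap, and its log2 differences of 0.21 (SE 0.10) and 0.24 (SE 0.09) did not pass the edgeR test (adjusted p = 0.188 and 0.127); after TNF-α Mapk9 passed in the edgeR fit of all 8 libraries (0.0473). The Mapk8 level was 0.816 and 0.728 of the Mapk9 level in basal control KD, and 0.561 and 0.529 of it in basal GSTM1 KD. After TNF-α the same ratio was 0.933 and 0.931 in control KD against 0.469 and 0.508 in GSTM1 KD.

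Mapk14, the p38α gene, varied least of all 10. Its levels were 31.95 and 30.7 TPM in basal control KD, 35.0 and 32.6 in basal GSTM1 KD, 30.6 and 30.95 in control KD after TNF-α, and 29.6 and 30.4 in GSTM1 KD after TNF-α. The log2 difference was 0.01 at the basal level (95% interval -0.24 to 0.25, edgeR adjusted p = 0.973) and -0.14 after TNF-α (95% interval -0.37 to 0.10, edgeR adjusted p = 0.337). These intervals leave room for a change of up to 1.19-fold at the basal level, and down to 0.773 of the control level after TNF-α.

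Downstream of p38, Mapkapk2 was the member with the highest level in GSTM1 KD. MK2, its product, is activated by p38 and phosphorylates proteins that govern the stability of cytokine mRNAs. It stood at 29.3 and 28.8 TPM in basal control KD and at 80.6 and 87.4 TPM in basal GSTM1 KD. After TNF-α it stood at 31.1 and 29.6 TPM in control KD and at 75.0 and 90.9 TPM in GSTM1 KD. The log2 differences were 1.47 and 1.37, or 2.77-fold and 2.59-fold, given as a description because this difference chose the gene. Relative to Mapk14, Mapkapk2 stood at 0.917 and 0.94 in basal control KD, 2.3 and 2.68 in basal GSTM1 KD, 1.01 and 0.957 in control KD after TNF-α, and 2.53 and 2.99 in GSTM1 KD after TNF-α.

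**Figure D4:**
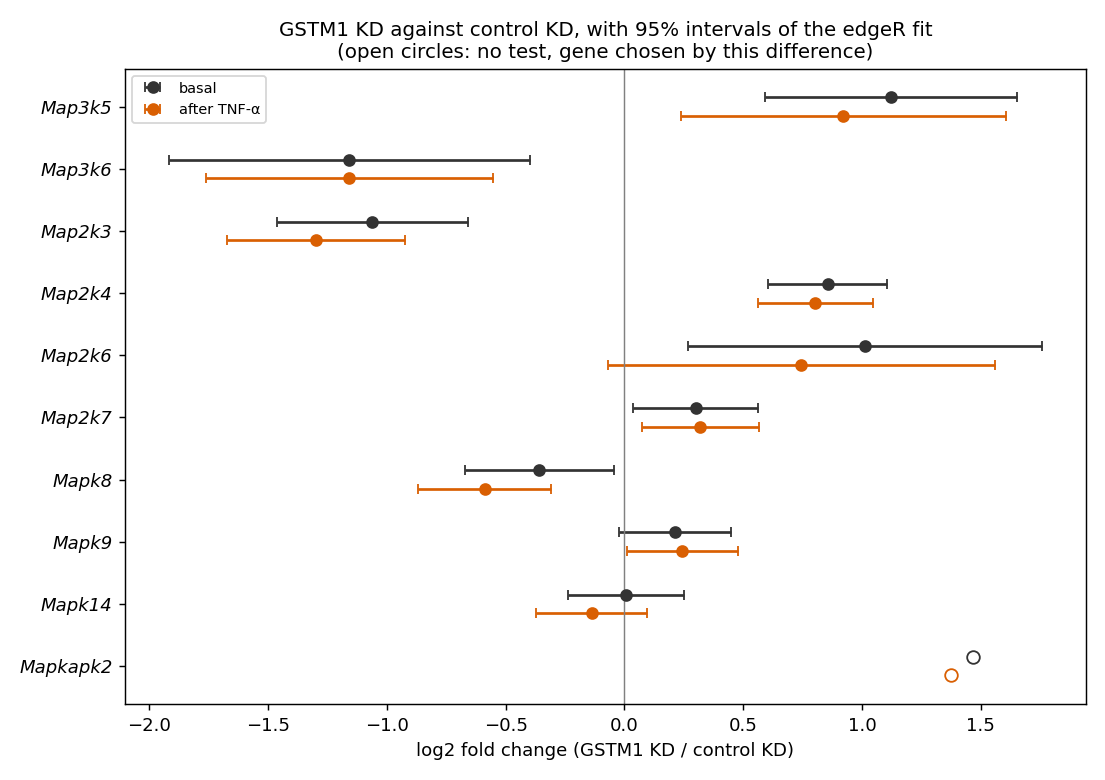
Log2 fold change of GSTM1 KD against control KD (x axis) for the 10 kinase genes, basally (dark) and with TNF-α (orange), with 95% intervals of the edgeR fit that are not adjusted for the number of genes; the open circles of Mapkapk2 carry no interval because this difference chose the gene. Map2k4 lies right of 0 and Map2k3 left of 0 in both states, while the intervals of Mapk14 include 0 in both.

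These differences move with other features of the cultures. The summed level of 8 fibroblast and mural cell markers was 3687 to 4036 TPM in basal control KD and 1846 to 2197 TPM in basal GSTM1 KD, and 3105 to 3191 against 1620 to 1881 TPM after TNF-α, mostly from Acta2. By edgeR Acta2 and Col1a2 passed as lower in GSTM1 KD in both states, at -1.02 and -1.13 basally and -0.93 and -0.99 with TNF-α on the log2 scale, while Pdgfrb, a mural cell receptor, passed as higher with TNF-α at 0.81 and stood at 16.8 to 25.8 against 30.4 to 30.6 TPM basally. The 10 astrocyte markers summed to 1793 to 4129 TPM in basal control KD and 4131 to 6236 TPM in basal GSTM1 KD, and to 1772 to 3942 against 3913 to 5945 TPM after TNF-α, with all 10 detected at 1 TPM or more. Gfap made up much of that sum, at 706 to 2206 against 2333 to 4184 TPM basally and 651 to 2016 against 2143 to 3828 TPM with TNF-α. By edgeR 0 of the 10 astrocyte markers passed as higher in GSTM1 KD and 1, S100b, passed as lower in both states. The 12 microglial and macrophage markers summed to 10.4 to 22.6 TPM in basal control KD and 8.59 to 13.3 TPM in basal GSTM1 KD. With TNF-α their sums were 10.8 to 20.5 against 7.32 to 12.8 TPM, and 0 were called in either state. Of them Itgam, the CD11b gene used for depletion, was at 0 to 0.67 TPM over the 8 libraries. Oligodendrocyte lineage markers summed to 574 to 678 TPM in basal control KD and 494 to 510 TPM in basal GSTM1 KD, and to 482 to 545 against 399 to 409 TPM with TNF-α, with Olig2 called lower in both states and Olig1 after TNF-α. Neuronal markers summed to 300.7 TPM in both basal control KD libraries and 330.5 to 377 TPM in basal GSTM1 KD, and to 285 against 308 to 333 TPM with TNF-α, with 0 called. Endothelial markers summed to 5.95 to 6.57 against 3.45 to 4.13 TPM basally and 7.06 to 9.03 against 4.93 to 6.9 TPM with TNF-α, with Cldn5 at 0 TPM in all 8 libraries. Ependymal and choroid plexus markers overlapped basally, at 77.3 to 119 against 104 to 119 TPM, and summed to 65.6 to 78.3 against 94.0 to 105 TPM with TNF-α; of them Folr1 passed as higher in GSTM1 KD in both states, at 2.67 and 2.78 on the log2 scale, at levels of 0.3 to 8.61 TPM. The part of these cell type differences in the kinase results was not tested, and in bulk samples fewer cells of a type and less RNA per cell cannot be told apart.

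The knockdown calls rest on few libraries. Leaving out either GSTM1 KD library leaves a single library in that group. Nearly all calls over all genes were then lost in both states, those of the 9 members among them. Leaving out a control KD library also leaves a single library in its group. The number passing in any of these fits is not read as a result about the members. Without a GSTM1 KD library the log2 difference was still -1.39 to -0.96 for Map2k3 and 0.74 to 0.89 for Map2k4 (adjusted p of 0.0708 to 0.183), and it was 1.26 and 0.96 for Map3k5 basally, and -1.27 and -1.04 for Map3k6 and -0.54 and -0.62 for Mapk8 after TNF-α. In these fits the lone GSTM1 KD library is assumed to vary like the 2 control KD libraries, which alone give the spread, so that a lost call there does not show a smaller difference. Map2k3 and Map2k4 passed in both states under all 10 fits that differed in normalising, filtering, testing or the libraries added, and so did Mapk8 after TNF-α.

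The second comparison asked how the same genes responded to 6 h of TNF-α within each knockdown. By edgeR 0 of the 10 passed in either knockdown, where 2.63% and 2.65% of 15332 genes passed. DESeq2 also gave 0 in each, and with no filter on low counts Map3k6 passed in control KD (adjusted p = 0.0308). With a term for the replicate number Map3k6 passed in both knockdowns (adjusted p = 0.0208 in control KD and 0.0365 in GSTM1 KD). At an unadjusted p under 0.05 there was 1 of the 10 in control KD (Map3k6) and 2 in GSTM1 KD (Map3k6 and Map2k6). Over all genes 12.5% and 10.9% were under that cut, so these counts are not read as a result about the members. On log2 CPM the groups did not overlap for 4 of the 10 in control KD (3 higher, 1 lower) and for 6 in GSTM1 KD (2 higher, 4 lower), against 34.5% and 44.5% of all genes. The responses share their basal libraries with the knockdown comparisons and are not independent of them.

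On counts, Map3k6 had the largest response among the 10 in both knockdowns. Its log2 response was 0.92 in control KD (SE 0.24, 95% interval 0.34 to 1.49, edgeR adjusted p = 0.131) and 0.94 in GSTM1 KD (SE 0.27, 95% interval 0.32 to 1.57, edgeR adjusted p = 0.172). With effective-length offsets its response in GSTM1 KD was 0.69 and with limma on log2(TPM + 1) 0.43, where Map2k6 gave -0.73 and -0.52. All 4 libraries with TNF-α lay above the basal libraries of the same knockdown. The related Map3k5 gave -0.37 (SE 0.26) in control KD and -0.55 (SE 0.25) in GSTM1 KD, on the log2 scale, and neither passed (edgeR adjusted p = 0.715 and 0.499). The TPM ratio of Map3k5 to Map3k6 was 0.681 and 1.4 in basal control KD, 2.64 and 3.62 in basal GSTM1 KD, 0.266 and 0.564 in control KD after TNF-α, and 1.23 and 1.44 in GSTM1 KD after TNF-α.

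For Map2k6 the response was -0.46 (SE 0.27) in control KD and -0.71 (SE 0.25) in GSTM1 KD, with edgeR adjusted p = 0.624 and 0.331. Map2k4 gave 0.20 (SE 0.09) and 0.17 (SE 0.08), with both TNF-α libraries above both basal libraries in each knockdown and edgeR adjusted p = 0.404 and 0.577. For the remaining 6 genes, Map2k3, Map2k7, Mapk8, Mapk9, Mapk14 and Mapkapk2, the log2 responses lay between -0.13 and 0.19. Mapkapk2 gave 0.09 (95% interval -0.16 to 0.33) in control KD and 0.02 (95% interval -0.22 to 0.25) in GSTM1 KD, intervals that reach 1.25-fold and 1.19-fold.

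**Figure D5:**
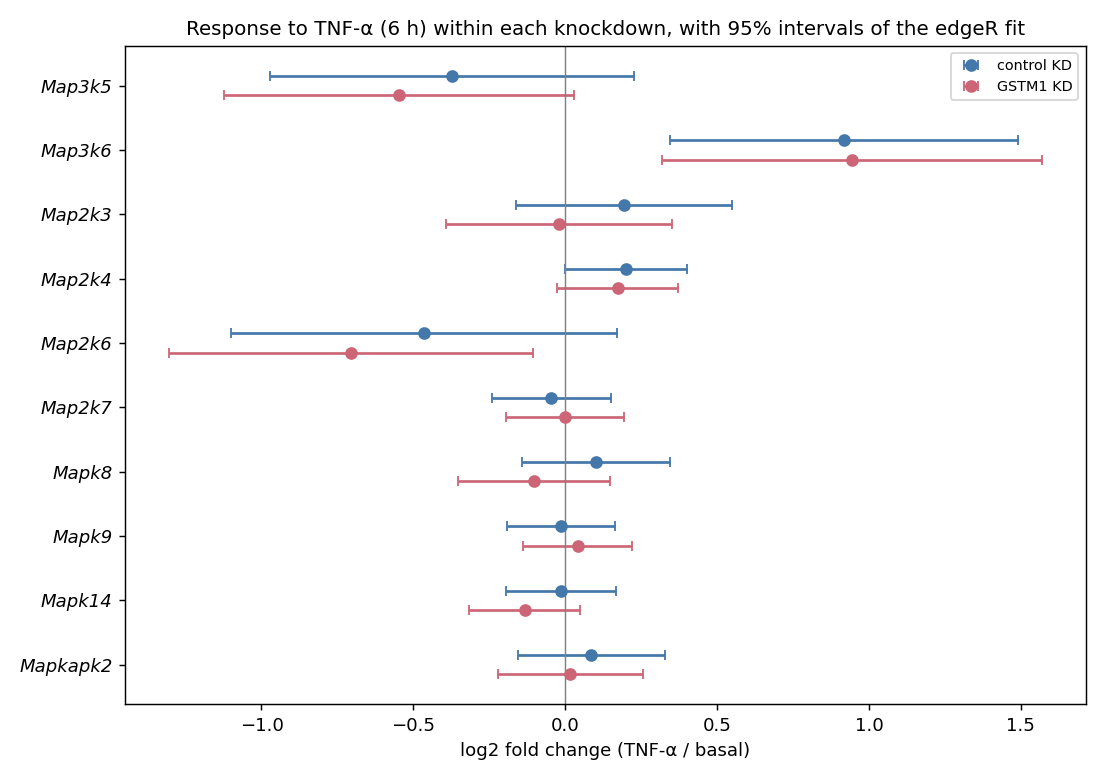
Log2 fold change after 6 h of TNF-α (x axis) for the 10 kinase genes in control KD (blue) and GSTM1 KD (red), with 95% intervals of the edgeR fit of all 8 libraries that are not adjusted for the number of genes. On these counts Map3k6 lies furthest right at 0.92 and 0.94, and none of the 10 passed the adjusted threshold.

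Whether the response to TNF-α itself differed between GSTM1 KD and control KD was tested as the difference of the responses in all 8 libraries, which is also the difference between the knockdown comparisons of the basal and the TNF-α state. None of the 10 passed by edgeR, and 0 had an unadjusted p under 0.05. Over all 15332 genes 0.0% passed, and 295 (1.92%) had an unadjusted p under 0.05. The counts for the 10 are therefore not read as a result about the members. By DESeq2 27 genes passed, none of them a member. The differences (GSTM1 KD minus control KD, log2) ran from -0.24 for Map2k6 (SE 0.37) to 0.05 for Mapk9 (SE 0.11). That of Mapk8, which passed after TNF-α and not at the basal level, was -0.20 (SE 0.15, 95% interval -0.55 to 0.15), and that of Map3k5 was -0.17 (SE 0.35, 95% interval -1.01 to 0.66). These intervals are wide, and equal responses were not shown.

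The wider pathway was described with 6 lists of genes around the cascade, to be read beside the 10.2% and 16.2% of all genes that passed in the 2 knockdown comparisons. Among 25 partners and regulators of ASK1, 1 was higher and 4 lower in GSTM1 KD at the basal level (20.0% called) and 1 higher and 6 lower after TNF-α (28.0%), with Gstm1 itself among the lower ones. Ripk1, a kinase of the TNF receptor complex, fell by 0.88 basally and by 0.77 after TNF-α on the log2 scale (edgeR adjusted p = 0.0183 and 0.0131). Akt1, a kinase known to phosphorylate and restrain ASK1, fell by 0.56 and 0.64 (adjusted p = 0.0334 and 0.018). Dab2ip, a scaffold that helps release ASK1 from its inhibitor, rose by 0.96 and 0.68 (adjusted p = 0.016 and 0.0256; 0.0513 for the latter state with limma). The list's median difference was -0.24 and -0.09.

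Of 22 other kinases that feed JNK and p38, 1 was higher and 2 lower at the basal level (13.6%) and 2 higher and 3 lower after TNF-α (22.7%). Map3k11, which encodes the mixed lineage kinase MLK3, fell by 0.90 and 1.07 on the log2 scale (edgeR adjusted p = 0.0197 and 0.0116). Map3k7, which encodes TAK1, the main such kinase of the TNF receptor and interleukin-1 pathways, fell by 0.66 and 0.58 (adjusted p = 0.0263 and 0.0223), and with limma on log2(TPM + 1) the values were -0.47 and -0.34 and did not pass (adjusted p = 0.0746 and 0.103). Map3k3 fell by 1.01 after TNF-α (adjusted p = 0.0122), with -0.41 at the basal level that did not pass, and Map3k12 rose by 0.66 at the basal level (adjusted p = 0.0352). The median of this list was 0.08 and 0.06.

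The scaffolds included the adaptors that bring TAK1 to ubiquitin chains. Of 15 scaffolds and adaptors, 0 were higher and 3 lower at the basal level (20.0%) and 1 higher and 3 lower after TNF-α (26.7%). Tab2 stood at 51.4 and 63.8 TPM in basal control KD and at 33.4 and 30.5 TPM in basal GSTM1 KD, and fell by 0.88 and 1.04 on the log2 scale (edgeR adjusted p = 0.0228 and 0.0109). Tab3 fell by 1.19 and 1.09 (adjusted p = 0.0192 and 0.0215), calls lost with limma on log2(TPM + 1) at -0.75 and -0.79 (adjusted p = 0.0861 and 0.0804). Flna, an actin crosslinker that also binds MKK4, fell by 0.76 after TNF-α (adjusted p = 0.0256), and Gadd45g fell by 0.92 at the basal level (adjusted p = 0.0315).

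Of the 10 other JNK and p38 isoforms and p38-activated kinases, 2 were higher at the basal level (20.0%) and 2 higher and 1 lower after TNF-α (30.0%). Mknk2, a kinase of the translation factor eIF4E, rose by 0.91 and 0.92 on the log2 scale (edgeR adjusted p = 0.0192 and 0.0197). Rps6ka4, which encodes the nuclear kinase MSK2, rose by 0.54 and 0.43 (adjusted p = 0.0453 and 0.048), without passing by limma (0.0575 and 0.0665) or, after TNF-α, by DESeq2 (0.0634) and with length offsets (0.0558). Mapk13, the p38δ gene, fell by 1.56 after TNF-α (adjusted p = 0.0375) on 20 to 108 counts per library.

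Among 25 substrates of JNK, p38 and MK2, 2 were higher and 3 lower at the basal level (20.0%) and 3 higher and 1 lower after TNF-α (16.0%). Hspb1, the small heat shock protein that MK2 phosphorylates, stood at 203 and 437 TPM in basal control KD and at 71.2 and 92.1 TPM in basal GSTM1 KD. It fell by 2.03 and 1.76 on the log2 scale (edgeR adjusted p = 0.0307 and 0.0197), with the 2 control KD libraries far apart. Mef2c, a transcription factor activated by p38, rose by 0.90 and 1.46 (adjusted p = 0.043 and 0.0105, and 0.0566 basally with limma), and Stmn1, a microtubule regulator, rose by 0.70 and 0.75 (adjusted p = 0.0282 and 0.0417). Zfp36, which encodes the mRNA decay factor tristetraprolin, fell by 0.80 at the basal level (adjusted p = 0.0296, and 0.052 with limma) with -0.03 after TNF-α.

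Of 18 MAP kinase phosphatases 15 could be tested, of which 2 were higher and 1 lower at the basal level (20.0%) and 2 higher and 3 lower after TNF-α (33.3%). Dusp8, whose product dephosphorylates JNK and p38, stood at 2.87 and 3.09 TPM in basal control KD and at 10.6 and 9.98 TPM in basal GSTM1 KD. It rose by 1.78 and 1.59 on the log2 scale (edgeR adjusted p = 0.0132 and 0.0112). Dusp1, which encodes the inducible phosphatase MKP-1, fell by 0.80 and 0.68 (adjusted p = 0.027 and 0.019). Ppp2cb, a catalytic subunit of protein phosphatase 2A, rose by 0.62 and 0.50 (adjusted p = 0.0263 and 0.0251). Dusp7 fell by 1.04 after TNF-α (adjusted p = 0.0112), with -0.19 at the basal level that did not pass.

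The responses of the same lists to TNF-α are to be read beside the 2.63% and 2.65% of all genes that passed. In control KD the calls were 1 of 25 ASK1 partners (4.0%), 2 of 25 substrates (8.0%) and 1 of 15 phosphatases (6.67%), and in GSTM1 KD 2 (8.0%), 3 (12%) and 0; the other 3 lists gave 0. Junb, an AP-1 transcription factor, rose by 1.94 in control KD and by 2.37 in GSTM1 KD on the log2 scale (edgeR adjusted p = 0.000589 and 0.000268). Between the knockdowns it was lower in basal GSTM1 KD (-0.74, edgeR adjusted p = 0.0296), with -0.32 after TNF-α that did not pass (0.0977). The difference of the Junb responses, 0.44 (SE 0.16), did not pass after adjustment. Traf2, the adaptor that links the TNF receptor to ASK1, rose by 0.91 and 1.21 (adjusted p = 0.0291 and 0.00923), and the former did not pass in the fit of the 4 control KD libraries (0.179). Dusp7 rose by 0.80 in control KD (adjusted p = 0.00764, and 0.0917 in those 4 libraries), with -0.02 in GSTM1 KD, and the difference of its responses did not pass after adjustment (-0.82, SE 0.13, adjusted p = 1). Zfp36 and Daxx, an ASK1-binding protein, rose by 1.20 and 1.34 in GSTM1 KD (adjusted p = 0.00421 and 0.0213), with 0.40 and 0.38 in control KD that did not pass; the Daxx call was lost with length offsets (0.0517) and limma (0.0734). The differences of their responses, 0.80 (SE 0.18) and 0.96 (SE 0.30), did not pass either (adjusted p = 1 for both).

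The genes whose pattern over the 8 libraries was most like that of 2 members were named by the smallest mean absolute difference of centred log2 CPM, among 15332 genes. For Map3k5 these were Phospho1 (0.07), Hdac5 (0.09) and Tmem200c (0.09), where Map3k5 itself spanned 1.92 on that scale. For Mapkapk2 they were Cemip (0.05), Hist2h2be (0.06) and Pex26 (0.07), where Mapkapk2 spanned 1.62. The 8 libraries share their knockdown and treatment groups, so these likenesses are a description.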

How the data were processed

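The kinase genes and the pathway and marker lists were chosen with earlier results of these data known. The authors prepared strand-specific libraries, mapped reads to GRCm38 with STAR 2.5.4b and estimated gene levels with RSEM 1.3.0. The deposited values include RSEM's expected counts, estimates of fragments per gene that are not normalized; they were rounded to whole numbers here. The deposited TPM values were used for levels and ratios and in 1 alternative. The deposited effective lengths are in bases. Use of the strand in the counting is not given in the sources used here.

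The 8 libraries were grouped by their labels, 2 in each group, described by the study as biological replicates. Differences were tested with edgeR 4.0.16 (R 4.3.3), using TMM normalization, filterByExpr, the quasi-likelihood F-test, and Benjamini-Hochberg adjustment over all genes tested at a threshold of 0.05. The knockdown comparisons used the 4 libraries of each state, and the TNF-α responses and their difference all 8. SE is the log2 fold change divided by the square root of F, and 95% intervals use the t distribution with the fit's degrees of freedom. The biological coefficient of variation was 14.5% to 15.8%. With 2 libraries a group, precision rests on spread shared across genes. The code was tested on simulated counts.

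Alternatives were DESeq2 1.42.0, DESeq2 size factors, library size alone, no filter, a minimum of 10 counts in every library, a replicate term, effective-length offsets, limma 3.58.1 on log2(TPM + 1), other sets of libraries, and leaving out each library. Genes named besides the members were, per list, up to 4 with the smallest p past the threshold in a knockdown comparison and up to 2 in a TNF-α response. Positions and sequences came from GRCm38 with GENCODE M21, whose gene identifiers matched those of the files in version for 9 of 10 members.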

Additional observations from a re-analysis of the deposited data

How the results depend on the processing

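Members past the threshold at the basal level numbered 3 of 9, and 5 with the replicate block and 6 with all 8 libraries. After TNF-α they numbered 4, and 7 with all 8 libraries. In both states the number moved up or down when a library was left out, and so did the number over all genes. For the TNF-α responses, 0 became 1 (Map3k6) in control KD with no filter and with the replicate block, and 1 (Map3k6) in GSTM1 KD with the replicate block (adjusted p = 0.0208 and 0.0365 with the block). The replicate numbers were not used as pairs, since only 2 are shared; same-numbered libraries deviated together, with correlations of 0.16 to 0.58 across genes over the 6 pairs of groups. At the basal level the block added Map3k6 (adjusted p = 0.00909) and Map2k6 (0.0351), and after TNF-α Map3k5 (0.0193). Over all genes the basal and TNF-α knockdown calls were 1524 and 2360, 4712 and 4302 with the block, 3957 and 4540 with no filter, 2762 and 3116 with all 8 libraries, and 2492 and 2824 by DESeq2. Another scaling moved the median over all genes by less than 0.1 on the log2 scale.

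Of the members' values, 685 kept direction and, where tested, side of the threshold. The knockdown differences of Mapkapk2 are among these and were not tested, so they kept direction only. A further 18 lost and 20 gained a call, and 37 changed sign, none of them a called value. Those were, on the log2 scale: Mapk14 between the knockdowns at the basal level, -0.0028 by DESeq2, -0.022 with no filter, and -0.029 to 0.033 when a library was left out. For the response of control KD they were Map2k7, 0.0015 with length offsets and -0.098 to 0.019 without a library; Mapk9, 0.003 with the minimum of 10 counts and -0.029 to 0.014; and Mapk14, 0.0021 and -0.028 to 0.0115. For the response of GSTM1 KD, without a library, Map2k3 ran from -0.12 to 0.10, Map2k7 from -0.0104 to 0.0106, Mapk9 from -0.0083 to 0.0896 and Mapkapk2 from -0.11 to 0.13; with library size only Mapk9 was -0.004 and Mapkapk2 -0.027, and with limma -0.0098 and -0.024. For the difference of the responses, without a library, Map3k5 ran from -0.44 to 0.11, Map3k6 from -0.24 to 0.23, Map2k4 from -0.10 to 0.035, Map2k7 from -0.022 to 0.096 and Mapkapk2 from -0.20 to 0.044; with length offsets Map3k6 was -0.21 and Map2k7 -0.0085, and with limma -0.23 and -0.029. The cause was not tested. For the list genes only the 47 called differences and responses were recomputed: none changed sign, 530 of the recomputed values stayed past the threshold, and 109 lost the call, 94 of them when a library was left out.

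Low counts limit Map2k6, Map3k5 and Map3k6.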
